A study of Mus musculus with 24 samples.

Results

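The replication-dependent histone genes of the mouse were followed across H3K9 methyltransferase mutants of mouse embryonic fibroblasts (MEFs). They were taken as every gene of the count table whose mouse symbol starts with Hist1h, Hist2h, Hist3h or Hist4h, a rule on names that uses no measured value. This gave 68 genes of the 47937 in the table: 6 of linker histone H1, 20 of H2A, 17 of H2B, 12 of H3 and 13 of H4. The annotation marks 3 of them as pseudogenes. Hist1h2bm and Hist1h2bh were not analysed here. After the filter on low counts, 66 of the 68 genes were tested among 18565 genes. Hist1h2aj and Hist1h1t were the 2 members below the filter.

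These genes supply the bulk of the histone protein that packages newly copied DNA. Their transcripts end in a short stem-loop in place of a poly(A) tail. The stem-loop is bound by SLBP, and the precursor is cut just after it with the help of U7 snRNA. Transcription rises at the entry into S phase through NPAT, the coactivator of the histone locus body, and the transcripts are degraded when DNA synthesis stops. The replication-independent histones, such as H3.3, H2A.Z and H1.0, are made from ordinary polyadenylated transcripts throughout the cell cycle.

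Total RNA of 8 conditions was sequenced with 3 biological replicates each, after removal of ribosomal RNA and without poly(A) selection, so transcripts ending in a stem-loop were counted. The question put to these genes was how their transcript levels differed as H3K9 methyltransferase genes were removed step by step. Each cell line was 1 clone, so a difference between cell lines cannot be told apart from a difference between clones. All conditions share a conditional Eset1 (Setdb1) allele and a tamoxifen-inducible Cre.

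WT was the Eset1 conditional line (clone Eset25) grown without 4-hydroxytamoxifen (4-OHT), and E1 was the same line after Eset1 deletion with 4-OHT. In series 1, E1 S1S2 (clone B1) lacked Eset1, Suv39h1 and Suv39h2, and 6KO1 (clone B1A6, made from B1) also lacked Eset2, G9a and Glp. In series 2, E2 (clone A4) lacked Eset2 and was grown without 4-OHT, and E1E2 was the same clone after 4-OHT. E1E2 G9Gl (clone E2, made from A4) also lacked G9a and Glp, and 6KO2 (clone E2F4, made from it) further lacked Suv39h1 and Suv39h2. E1 S1S2, E1E2 G9Gl, 6KO1 and 6KO2 were all grown with 4-OHT before harvest. WT and E1 were the same clone, as were E2 and E1E2. Within these pairs, Eset1 deletion cannot be told apart from exposure to 4-OHT. Comparisons of the other 4-OHT lines with untreated WT hold this difference in treatment too. Mutations other than Eset1 were made with CRISPR/Cas9, and the lines were kept under puromycin.

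Libraries held between 19541909 and 31489070 gene counts. The treatment label names 4-OHT for every sample, so the untreated and treated conditions rest on the sample titles. Setdb1, counted over the whole gene and not only the deleted exons, was below WT in all 7 mutant conditions. On the log2 scale E1 stood at -0.57, its derivative E1 S1S2 at -0.58 and 6KO1 at -0.57. E2 and E1E2 were both at -0.31, E1E2 G9Gl at -1.19 and 6KO2 at -0.95. Its level was thus as low in E2, titled as untreated, as in E1E2, and whole-gene counts do not show the Eset1 deletion at that step. The WT library of replicate 2 stood apart over all tested genes. The chi-square value per gene between it and the other WT libraries was 50 and 59.8, against 4.54 between WT replicates 1 and 3 and 2.16 to 22.2 within the other conditions. Over the tested histone genes alone these WT values were 70.6 and 53.9, against 14.5 between replicates 1 and 3. The pairs within E1 were at 115.7, 59.9 and 272.5, and 272.5 was the highest of any pair. The summed level of 12 fibroblast markers was between 3897 and 9634 CPM (counts scaled to library size) over the libraries, and 6 of these 12 markers were called lower and 0 higher in 6KO1, with 2 lower and 1 higher in 6KO2, 5 lower in E1 S1S2, and 2 lower and 3 higher in E1E2 G9Gl. Markers of other cell types were far lower. The haematopoietic list summed to 3.54 to 4.13 CPM in WT, with 4 of 6 at 0, 21.3 to 24 in 6KO1 and 4.83 to 5.8 in 6KO2, and 3 and 2 of its 4 tested genes were called higher. The line E1E2 G9Gl had 26.4 to 27.4 CPM and 3 genes called higher. The 5 epithelial markers summed to at most 1.23 CPM in WT, 11.3 in 6KO1 and 21.2 in 6KO2, and the 4 endothelial ones to at most 0.589, 5.52 and 5.45 CPM. For E1E2 G9Gl these sums were at most 5.58 and 3.47 CPM. The pluripotent and germ cell list stayed at or under 0.903 CPM in these lines. Of all genes tested, 10.2% were called lower in 6KO1, 5.39% in 6KO2, 5.11% in E1 S1S2 and 8.41% in E1E2 G9Gl. For higher calls these shares were 20.6%, 15.3%, 6.65% and 16.8%. The part of the marker differences in the results was not tested.

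The stem-loop defines these transcripts, so its forms are shown first. In the transcripts of the GENCODE vM21 annotation (GRCm38), the histone 3′ stem-loop, a run of 16 bases read on the transcript strand, was found in 44 of the 68 genes. It was found in 0.0722% of 55380 other genes. Of the replication-independent histones searched, H2afx alone held a match, and H3f3a, H3f3b, H2afz, H1f0, Cenpa and H2afj held none. The 5 most frequent forms are given 5′ to 3′, with the pairing arms in capitals and the loop in lower case.
Form of 24 genes of H1, H2A, H2B and H3: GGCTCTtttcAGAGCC
Form of 7 H4 genes: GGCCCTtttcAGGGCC
Form of 6 genes of H1, H2B and H3: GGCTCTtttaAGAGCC
Form of Hist1h4i and Hist2h4: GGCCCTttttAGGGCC
Form of Hist1h4b and Hist1h4j: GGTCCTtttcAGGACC
The search pattern already fixed the G-C and T-A pairs at both ends of each arm and part of the loop. It held the other pairs to a pyrimidine facing a purine, so pairing was largely built in. The arms paired fully in all 44 genes. The GGCCCT arm, which differs from GGCTCT by 1 base, was seen in H4 genes only.

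Hist1h1b, the most abundant H1 gene per exon length in WT, is among the 24 genes without a match in the annotated transcript. No match says only that the annotated transcript holds no such letters. Of the 44 genes with a match, 22 had annotated sequence of 100 bases or more after the stem-loop and 22 had less. The median log2 fold change of both groups lay below 0 in each 6KO line. For the longer annotated tails it was -0.73 in 6KO1 and -0.49 in 6KO2, and for the shorter ones it was -0.81 and -0.19.

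All members together made up between 0.572% of gene counts, in a 6KO1 library, and 1.2%, in an E2 library. The summed level of the 68 genes was 9033, 11399 and 8932 CPM in the 3 WT libraries and 5244, 5730 and 5364 CPM in 6KO1. It was 7552, 7206 and 6996 CPM in 6KO2. All 6KO1 and 6KO2 libraries lay below all WT libraries. The mean ± SD (n = 3) fell from 9788 ± 1396 CPM in WT to 5446 ± 253 in 6KO1, a ratio of 0.556, and to 7251 ± 281 in 6KO2, a ratio of 0.741. In bulk RNA, fewer cells in S phase and less histone RNA per cell cannot be told apart. Repeat elements took 21.5 to 21.9% of all counts in 6KO1 and 12.5 to 13.7% in WT; CPM values refer to gene counts alone.

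The intermediate lines of both series also lay below WT. The E1 S1S2 libraries were at 8331, 7875 and 7620 CPM (mean 7942 ± 360, ratio 0.811) and those of E1E2 G9Gl at 7895, 7707 and 7797 CPM (mean 7800 ± 94.2, ratio 0.797). The highest library of each was below the lowest WT library. By contrast, E1 (mean 9716 ± 1865 CPM), E2 (11556 ± 786) and E1E2 (9458 ± 499) overlapped WT, with ratios of 0.993, 1.18 and 0.966. The E1 libraries had the largest SD of all conditions and ranged from 7830 to 11558 CPM. Without WT replicate 2, which had the highest sum of the WT libraries, the ratio was 0.606 for 6KO1 and 0.807 for 6KO2.

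**Figure D1:**
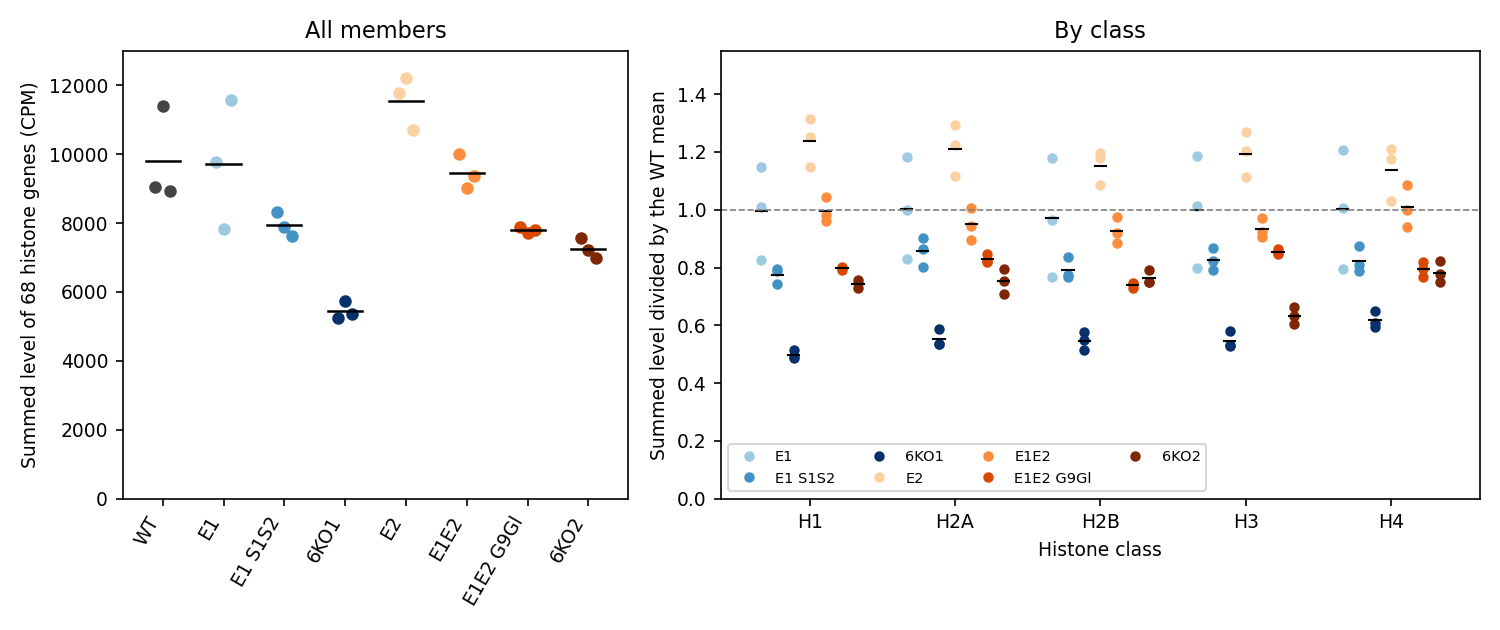
Left, summed CPM of the 68 histone genes in each of the 24 libraries by condition, with a line at the mean of 3. Right, class sums divided by the WT mean. The 6KO1 libraries (5244 to 5730 CPM) sit lowest, and the libraries of E1 S1S2, E1E2 G9Gl and 6KO2 also lie below every WT library.

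The 5 classes were lowered to a similar extent in 6KO1. The ratio to WT of the class sum was 0.499 for H1, 0.552 for H2A, 0.547 for H2B, 0.547 for H3 and 0.617 for H4. In 6KO2 the ratios were 0.744, 0.752, 0.765, 0.634 and 0.783, with H3 lowest. In E2 the H1 sum was 1.24 times the WT mean, and its 3 libraries lay above all WT libraries.

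Single genes were called when the log2 fold change was at least 1 in size and the Benjamini-Hochberg adjusted p of the edgeR quasi-likelihood test was at most 0.01. The comparisons with WT share the same 3 WT libraries, so their values are given side by side. In 6KO1, 14 of the 66 tested histone genes were called lower (21.2%), against 10.2% of all genes tested. In the same comparison, 4 were called higher (6.06%), against 20.6% of all genes. Without the fold minimum, 46 histone genes were lower (69.7%), against 30.3% of all genes. The median log2 fold change was -0.77 over the histone genes and 0.06 over all genes. The direction was shared by most members while the change was often less than 2-fold.

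In 6KO2, 11 of 66 were called lower (16.7%), against 5.39% of all genes, and 4 higher, against 15.3%. Without the fold minimum, 31 were lower (47%), against 25% of all genes. The median was -0.36 over the members and 0.04 over all genes. The same direction was called in both 6KO lines for 9 genes, 3 higher and 6 lower. These counts depended on WT replicate 2. Without it, 6 members (9.09%) were called lower in 6KO1, against 8.91% of all genes, so the excess of called members was gone there. In 6KO2 7 (10.6%) were called lower, against 4.92%. By the adjusted p alone, 43 (65.2%) were still lower in 6KO1, against 29.2%, and 28 (42.4%) in 6KO2, against 23.4%. In 39 tested members, at least 50% of 75-base stretches were found in no other histone gene. Of these, 5 (12.8%) were called lower in each 6KO line, against 10.2% of all genes in 6KO1 and 5.39% in 6KO2. The 6KO1 share was thus close to that of all genes. Lower by the adjusted p alone were 27 (69.2%) in 6KO1 and 16 (41%) in 6KO2, against 30.3% and 25% of all genes.

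Fewer members passed the calls in the intermediate lines. In E1 S1S2, 2 were called lower, against 5.11% of all genes, and 0 higher, against 6.65%. By the adjusted p alone, 15 were lower (22.7%), a share close to the 21.9% of all genes, and the median was -0.22. In E1E2 G9Gl, 3 were called higher, against 16.8% of all genes, and 0 lower, against 8.41%. By the adjusted p alone, 27 were lower (40.9%), against 28.3%, with a median of -0.31. Without WT replicate 2, 8 members (12.1%) were lower by the adjusted p alone in E1 S1S2, against 19.5% of all genes, and 13 (19.7%) in E1E2 G9Gl, against 26.7%, so neither share was above that of all genes. At an unadjusted p under 0.05, 2 members were higher in E1 S1S2, against 27.4% of all genes, and 38 lower in E1E2 G9Gl, against 34%. DESeq2 called 0 in both directions concerned.

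In E1, after deletion of Eset1 alone, 0 members were called higher and 0 lower, against 2.27% and 1.99% of all genes. At an unadjusted p under 0.05, 5 were higher and 0 lower, against 15.7% and 15.4%, and DESeq2 called 0. The median was 0.01. In E2, 5 were called higher, against 2.9% of all genes, and 0 lower, against 3.21%. There were 17 higher by the adjusted p alone (25.8%), against 12.5%, and the median was 0.23. In E1E2, 2 were called higher, against 5.51%, and 0 lower, against 3.22%, with a median of -0.03. DESeq2 called 0 lower in E2 and 0 in E1E2, and at an unadjusted p under 0.05 the lower members were 0 in E2, against 24.7% of all genes, and 14 in E1E2, against 26.2%.

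**Figure D2:**
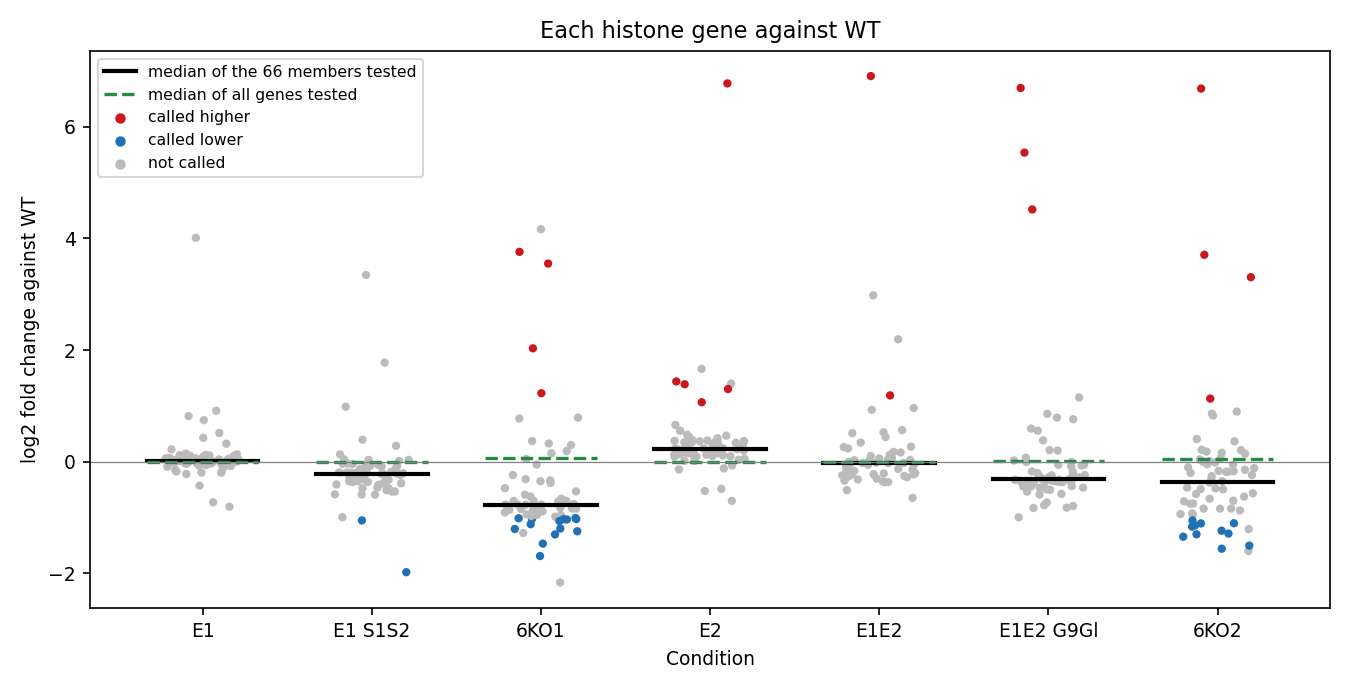
Log2 fold change against WT of the 66 tested histone genes in each of the 7 mutant conditions. Each point is 1 gene, red where called higher, blue where called lower and grey otherwise; the black line is the median of the members and the green dashed line that of all 18565 genes. The members' median is -0.77 in 6KO1, -0.36 in 6KO2 and 0.23 in E2, and the highest points belong to Hist3h2ba, which had 0 counts in WT, so that the counts give no upper bound for them.

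The steps within each series were compared as well. From E1 to E1 S1S2, 3 members were lower and 0 higher, against 3.74% and 4.31% of all genes. From E1 S1S2 to 6KO1, 4 were lower and 3 higher, against 5.02% and 16.3%. At the adjusted p alone, 41 (62.1%) were lower at this step, against 22.9% of all genes. This was the step of series 1 with the larger number of lower members.

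In series 2, the step from E2 to E1E2 had 0 calls in either direction, against 2.32% higher and 0.657% lower of all genes. At the adjusted p alone 14 members (21.2%) were lower, against 5.35%. From E1E2 to E1E2 G9Gl, 2 were higher and 0 lower, against 14.8% and 6.78%, and 20 were lower at the adjusted p alone, against 24.7%. From E1E2 G9Gl to 6KO2, 1 was higher and 4 were lower, against 7.19% and 9.12%. At the adjusted p alone 19 were lower and 9 higher, against 22.3% and 21.3%. DESeq2 also called 0 wherever the count of a step was 0. Unadjusted p-values under 0.05 were found there for 40 lower and 1 higher member from E2 to E1E2, against 13.8% and 16.6% of all genes. They were found for 29 lower members from E1E2 to E1E2 G9Gl, against 31.5%, and for 0 higher members from E1 to E1 S1S2, against 24.3%.

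Directly between the 6KO lines, which lacked the same 6 genes, 3 members were lower in 6KO1 and 4 higher, against 7.1% and 9.77% of all genes. At the adjusted p alone 22 (33.3%) were lower in 6KO1, against 24.2%.

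H1 genes code for the linker histones that bind DNA between nucleosomes. All 5 tested H1 genes were lower in 6KO1 at an adjusted p of at most 0.01, against 30.3% of all genes. Hist1h1b (H1.5; chr13:21779883-21780625, minus strand) was at 362, 420 and 361 CPM in WT, at 111, 124 and 119 in 6KO1 and at 160, 151 and 153 in 6KO2. The 6KO libraries were all below the WT libraries. The log2 fold change was -1.69 ± 0.09 (SE, adjusted p = 7.02e-14) in 6KO1 and -1.30 ± 0.09 (1.4e-11) in 6KO2. Its level in E1 S1S2 was 290, 294 and 277 CPM and in E1E2 G9Gl 218, 222 and 219 CPM, between WT and the 6KO line of each series. From E1 S1S2 to 6KO1 it was lower by -1.28 ± 0.09 (adjusted p = 1.61e-11).

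Hist1h1d (H1.3) was at 380, 430 and 378 CPM in WT, 158, 168 and 155 in 6KO1, close to the 165, 162 and 159 of 6KO2, with log2 fold changes of -1.30 (adjusted p = 6.98e-13) and -1.29 (1.9e-12). The fold changes in both 6KO lines were near equal. Hist1h1e (H1.4) and Hist1h1c (H1.2) had smaller values that differed between the lines. Hist1h1e fell from 500, 537 and 501 CPM to 282, 291 and 288 in 6KO1 (-0.84 ± 0.07), and was at 430, 438 and 435 in 6KO2 (-0.24 ± 0.07, adjusted p = 0.00684). Hist1h1c was at 457, 513 and 459 CPM in WT and 302, 312 and 289 in 6KO1 (-0.66 ± 0.09), and at 493, 470 and 452 in 6KO2, overlapping WT with a log2 fold change of -0.01 (adjusted p = 0.893).

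Hist1h1a (H1.1) was the 1 histone gene called in opposite directions in comparisons with WT. Its libraries were at 188, 282 and 196 CPM in WT and at 226, 180 and 302 in E1. They were at 57.8, 53.5 and 57.7 CPM in E1 S1S2 and at 116, 131 and 129 in 6KO1. The A4-derived lines all lay above 250 CPM: 438, 509 and 448 in E2, 448, 423 and 426 in E1E2, 327, 338 and 341 in E1E2 G9Gl, followed by 259, 262 and 251 in 6KO2. E1 S1S2 was lower than WT by -1.98 ± 0.14 (adjusted p = 5.34e-11) and E2 higher by 1.07 ± 0.14 (1.43e-06). From E1 S1S2 to 6KO1 the level rose by 1.15 ± 0.14 (1.71e-07), against the direction of most members at that step. The 6KO1 and 6KO2 libraries did not overlap, and 6KO1 was lower by -1.04 ± 0.14 (7.09e-07). The testis H1 gene Hist1h1t, below the filter, had 2 to 9 counts summed over the 3 libraries of each condition.

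H2A and H2B form the dimers that flank the H3-H4 tetramer in the nucleosome core, and many of their genes lie head to head in pairs. Among the abundant H2A genes, Hist1h2ak was at 194, 224 and 185 CPM in WT, 123, 129 and 120 in 6KO1 (-0.70 ± 0.09) and 141, 134 and 129 in 6KO2 (-0.58 ± 0.09). Both 6KO lines lay below WT without reaching the fold minimum. Hist2h2ac, on chromosome 3, was at 166, 196 and 157 CPM in WT and 92.6, 99.2 and 96.5 in 6KO1 (-0.85 ± 0.10). In 6KO2 it was at 142, 138 and 137 CPM (-0.31 ± 0.10, adjusted p = 0.00668).

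Hist1h2ab (chr13:23751126-23751598, plus strand) separated the 6KO lines. Its libraries were at 174, 208 and 166 CPM in WT, 64.5, 70.7 and 63.2 in 6KO1, and 174, 160 and 150 in 6KO2. The 6KO1 libraries lay below all others, and the 6KO2 libraries overlapped WT. The log2 fold change was -1.47 ± 0.10 (adjusted p = 1.13e-11) in 6KO1 and -0.18 ± 0.10 (0.117) in 6KO2, and the direct difference was -1.29 ± 0.10 (2.89e-10). In contrast, Hist1h2af was low in both lines. It was at 38.1, 47.3 and 36.1 CPM in WT, 16.9, 17.7 and 18.1 in 6KO1 (-1.21 ± 0.13) and 18.1, 15.5 and 14.2 in 6KO2 (-1.34 ± 0.13). Of 75-base stretches of the Hist1h2ab transcript, 44.6% were found in no other histone gene, so part of its reads could also have come from near copies.

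The most abundant H2B genes were Hist2h2bb, Hist1h2bb and Hist1h2bn. Hist2h2bb was at 300.1, 460 and 293 CPM in WT, 176, 202 and 199 in 6KO1 (-0.87 ± 0.15) and 281, 263 and 270 in 6KO2 (-0.37 ± 0.15, adjusted p = 0.0308). Hist1h2bb was called lower in 6KO1, from 312, 432 and 295 CPM to 155, 176 and 166 (-1.06 ± 0.12). It overlapped WT in 6KO2 at 315, 298 and 310 CPM (-0.17 ± 0.12, adjusted p = 0.22). Hist1h2bn, paired head to head with Hist1h2ak at a distance of 295 bases, was at 261, 330 and 259 CPM in WT, 130, 146 and 140 in 6KO1 (-1.03 ± 0.10) and 162, 155 and 158 in 6KO2 (-0.84 ± 0.10). Hist1h2bq was called lower in both lines (-1.02 and -1.14), but only 3.9% of its 75-base stretches were its own and its libraries scattered, from 90 to 137 CPM in WT and from 32.1 to 70.1 in 6KO2.

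H3 carries the lysine 9 that the deleted enzymes methylate. Hist1h3c, the most abundant H3 gene per exon length in WT, was at 279, 357 and 288 CPM in WT and 158, 172 and 162 in 6KO1 (-0.91 ± 0.10). It was at 291, 263 and 248 CPM in 6KO2 (-0.20 ± 0.10, adjusted p = 0.0853), overlapping WT. Hist1h3f and Hist1h3e were low in both lines. Hist1h3f was at 265, 327 and 254 CPM in WT, 160, 177 and 160 in 6KO1 (-0.77 ± 0.11) and 151, 148 and 142 in 6KO2 (-0.94 ± 0.11). Hist1h3e was at 201, 263 and 196 CPM in WT, 113, 121 and 108 in 6KO1 (-0.94 ± 0.11) and 102, 98.8 and 93.1 in 6KO2, where it was called lower (-1.16 ± 0.11).

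Hist1h3d (chr13:23575763-23577011, plus strand) and Hist1h3g were the H3 genes called lower in both 6KO lines. Hist1h3d was at 99.5, 130 and 96.7 CPM in WT, 46.8, 49.2 and 46.3 in 6KO1 (-1.20 ± 0.11, adjusted p = 1.71e-09) and 38.1, 40.1 and 37 in 6KO2 (-1.5 ± 0.11, 9.03e-11). The 6KO libraries lay well below WT without overlap. From E1E2 G9Gl, at 85.1, 85.9 and 89.8 CPM, to 6KO2 it fell by 1.18 on the log2 scale (adjusted p = 7.62e-09). Hist1h3g was at 74.8, 97.6 and 73.9 CPM in WT, 36.3, 41.3 and 35.8 in 6KO1 (-1.12) and 35.1, 35.3 and 34.1 in 6KO2 (-1.24).

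H4 pairs with H3 at the centre of the nucleosome. The edgeR test called 0 of the 13 H4 genes lower in 6KO1, although 10 were lower at the adjusted p alone and 10 at an unadjusted p under 0.05. Of all genes, 10.2% were called lower and 30.3% were lower at the adjusted p alone. Hist1h4d was at 538, 696 and 519 CPM in WT, 288, 312 and 303 in 6KO1 (-0.96 ± 0.11) and 355, 341 and 345 in 6KO2 (-0.75 ± 0.11). Hist1h4n was at 294, 406 and 285 CPM in WT, 202, 233 and 205 in 6KO1 (-0.62 ± 0.13) and 278, 250.4 and 245 in 6KO2 (-0.35 ± 0.12, adjusted p = 0.0178). Hist1h4c was at 288, 376 and 299 CPM in WT and 187, 204 and 188 in 6KO1 (-0.73 ± 0.12). In 6KO2 it was at 392, 359 and 340 CPM (0.18 ± 0.11, adjusted p = 0.172), overlapping WT.

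Hist1h4i (chr13:22040636-22041362, minus strand) was the only H4 gene called higher. Its libraries were at 26.6, 34.1 and 25.3 CPM in WT, 61.2, 71.8 and 68.5 in 6KO1 and 68.6, 61.2 and 58.6 in 6KO2. E1 S1S2 was at 36.7, 34.2 and 33.8 CPM and E1E2 G9Gl at 31.8, 29.2 and 29.4 CPM, so the 6KO libraries stood above those of every other condition. The log2 fold change was 1.23 ± 0.13 (adjusted p = 7.3e-09) in 6KO1 and 1.13 ± 0.13 (5.12e-08) in 6KO2, and 1.06 ± 0.13 (2.07e-07) from E1E2 G9Gl to 6KO2. The other 4 histone genes of its group (chr13:22035164-22043676) were all lower in 6KO1 at the adjusted p alone, against 30.3% of all genes. Its stem-loop, the GGCCCT form with 4 thymines in the loop, is given with 5 flanking bases on each side, arms in capitals.
Hist1h4i 3′ stem-loop: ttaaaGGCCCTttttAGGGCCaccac

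**Figure D3:**
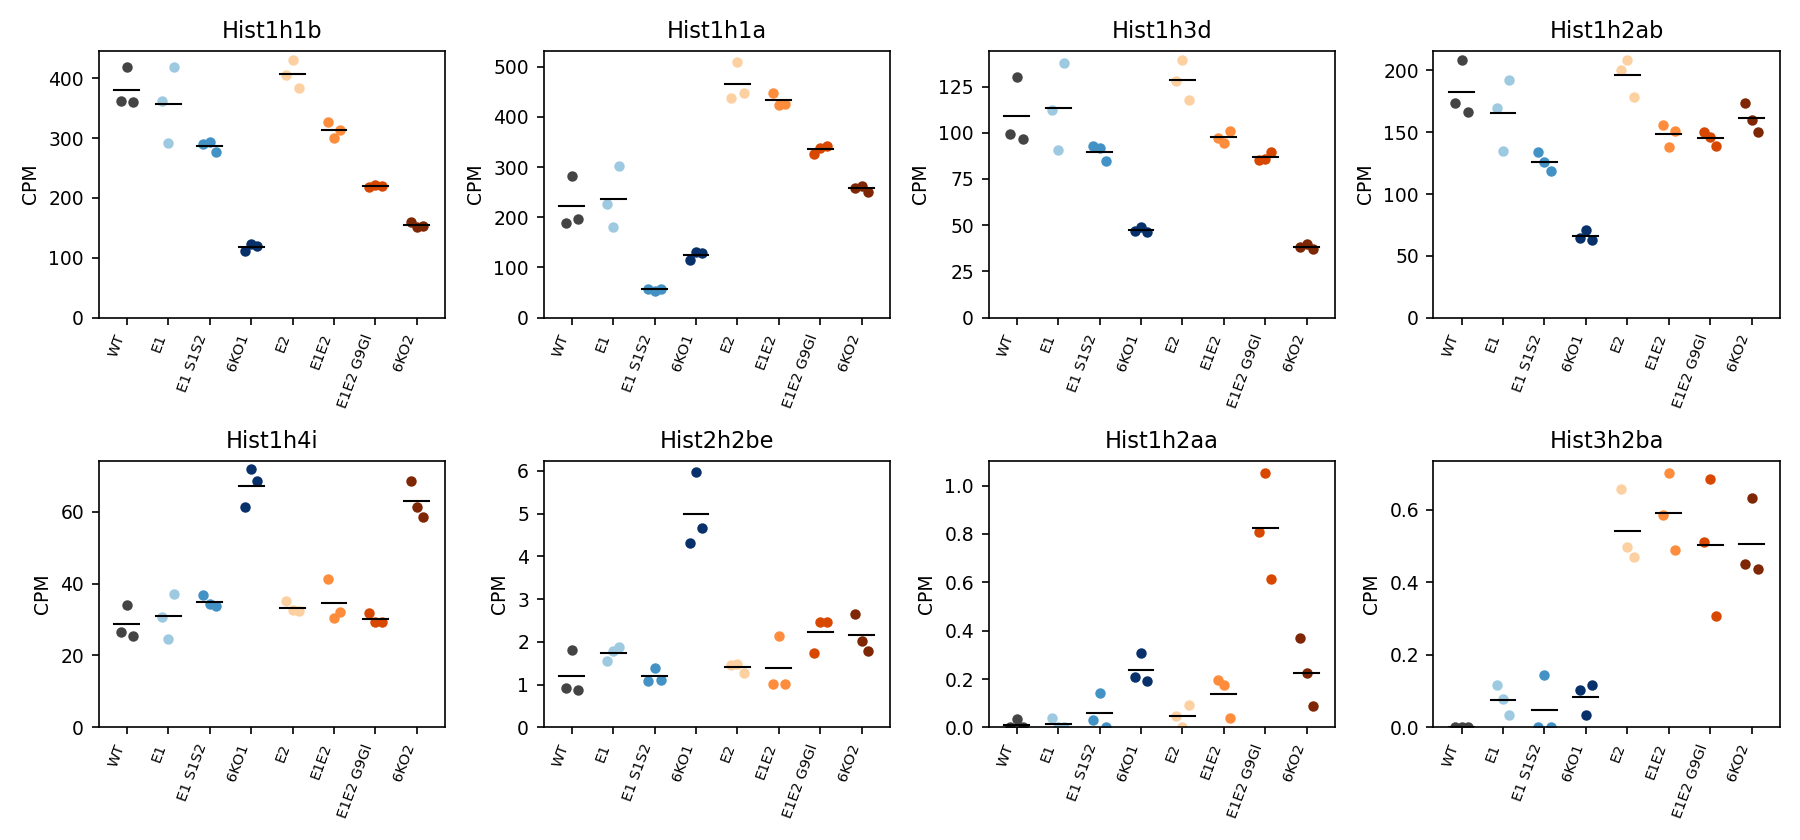
CPM in each library of 8 histone genes by condition, 1 panel a gene with its own axis from 0. Hist1h1b and Hist1h3d are low in both 6KO lines, Hist1h2ab in 6KO1 alone, Hist1h4i is high in both, and Hist1h1a is lowest in E1 S1S2 and highest in E2 and E1E2.

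Hist1h2aa and Hist1h2ba, the testis-specific H2A and H2B genes, are a head-to-head pair on chromosome 13, 305 bases apart. Both were near 0 in WT and had their highest counts in the lines that lacked G9a and Glp. Hist1h2aa had 0, 1 and 0 counts in the WT libraries, 6, 9 and 5 in 6KO1, 19, 23 and 12 in E1E2 G9Gl, then 9, 5 and 2 in its 6KO2 derivative. Hist1h2ba had 1, 0 and 1 counts in WT, 12, 6 and 12 in 6KO1, 22, 11 and 13 in E1E2 G9Gl, then 5, 5 and 11 in 6KO2. Libraries of these 3 lines lay above all WT libraries for both genes.

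From summed counts, the level of Hist1h2aa was 18.3 times that of WT in 6KO1 (95% interval 2.93 to 759, exact, for counting error only). It was 63.8 times WT in E1E2 G9Gl (11 to 2567), and the 6KO2 ratio was 17.6 (2.74 to 740). The Hist1h2ba ratio was 13.7 (3.49 to 119) for 6KO1. It reached 27.2 (7.11 to 231) for E1E2 G9Gl, while that of 6KO2 was 11.6 (2.83 to 102). These wide intervals come from 1 and 2 counts in WT. Both genes were called higher in all 3 lines, with adjusted p from 1.16e-06 to 0.00344 in the edgeR test. From E1E2 G9Gl to 6KO2 Hist1h2aa was called lower (adjusted p = 0.00185). Both genes passed the filter on low counts only through libraries of these 3 lines, where they were high. These calls and p-values therefore give no support beyond the counts. Both genes are among the 4 members called higher in each 6KO line. Lines that kept G9a and Glp had lower counts. In E1E2 each gene had 10 counts in all, a ratio to WT of 10.5 (1.49 to 456) for Hist1h2aa and 5.25 (1.12 to 49.3) for Hist1h2ba, and neither was called. E1 S1S2 had 5 counts of each, with intervals that included 1.

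Hist3h2ba (H2B; chr11:58948920-58949533, plus strand) followed the clone A4 lineage. It had 0 counts in all 3 WT libraries, 14, 14 and 10 in E2, 15, 16 and 12 in E1E2, 12, 15 and 6 in E1E2 G9Gl, then 11, 14 and 10 in 6KO2. E1 had 6 counts in all, E1 S1S2 4 and 6KO1 7. Taking 3 counts over the WT group as the floor, the level was at least 13.7-fold higher in E2, 15.1-fold in E1E2, 13-fold in E1E2 G9Gl and 12.9-fold in 6KO2. The 6KO lines differed directly (adjusted p = 0.00048), with every 6KO2 library above every 6KO1 library. The gene passed the filter on low counts only through the lines of this lineage. Its calls and this p-value therefore give no support beyond the counts.

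Promoters of 3 of the 5 members called higher than WT in a 6KO line are shown: Hist1h2ba for the testis-type pair, Hist3h2ba and Hist1h4i. Those of Hist1h2aa and Hist2h2be are not shown. Each is 250 bases before to 50 bases after the gene start, from RefSeq (GRCm38.p6), 5′ to 3′ on the gene's strand. Capitals mark the octamer ATTTGCAT, the CCAAT box (CCAAT) and the TATA box (TATAAA), each searched on both strands.
Hist1h2ba, chr13:23934107-23934406, minus strand: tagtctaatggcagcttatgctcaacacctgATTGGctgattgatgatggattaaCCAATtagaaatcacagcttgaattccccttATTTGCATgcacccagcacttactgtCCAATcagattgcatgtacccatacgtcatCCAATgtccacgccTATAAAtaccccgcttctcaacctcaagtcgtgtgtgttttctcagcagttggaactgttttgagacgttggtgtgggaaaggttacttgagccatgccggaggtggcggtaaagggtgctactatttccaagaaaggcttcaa
Hist3h2ba, chr11:58948661-58948960, plus strand: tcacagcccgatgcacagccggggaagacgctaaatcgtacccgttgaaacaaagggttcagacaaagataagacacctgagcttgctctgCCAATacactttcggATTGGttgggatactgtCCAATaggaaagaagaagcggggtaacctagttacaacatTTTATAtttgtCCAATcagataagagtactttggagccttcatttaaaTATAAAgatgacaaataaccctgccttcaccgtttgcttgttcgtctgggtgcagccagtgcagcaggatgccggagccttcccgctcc
Hist1h4i, chr13:22041313-22041612, minus strand: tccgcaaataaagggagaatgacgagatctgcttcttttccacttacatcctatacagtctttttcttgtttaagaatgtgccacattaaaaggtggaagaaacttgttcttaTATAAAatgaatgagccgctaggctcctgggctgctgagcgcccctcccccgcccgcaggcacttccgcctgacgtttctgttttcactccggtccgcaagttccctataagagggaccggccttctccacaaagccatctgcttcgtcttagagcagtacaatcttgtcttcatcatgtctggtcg
The Hist1h2ba promoter held all 3 motifs, that of Hist3h2ba held CCAAT and TATAAA, and that of Hist1h4i held TATAAA.

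Promoters of 59 histone genes were matched. The octamer was in 12 of them (20.3%), 7 of H2A and 5 of H2B, against 1.74% of 32851 promoters of the same length. CCAAT was in 50 (84.7%), against 37.4%. It was in all matched promoters of H1, H2A, H2B and H3 genes and in 3 of 12 H4 promoters. TATAAA was in 34 (57.6%), against 13.6%. A match describes letters in the window and no binding site.

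The histone genes lie in 8 groups separated by more than 100 kb, of which the 3 with 10 members or more are on chromosomes 13 and 3. The longest one, from Hist1h4h to Hist1h1a, holds 28 members in 233 kb of chromosome 13. Its members fell into 2 sets in 6KO2, on either side of a 58.9 kb gap. This boundary was drawn after the values were seen, so the counts on each side are a description. In the 15 genes from Hist1h4h to Hist1h1e (chr13:23531050-23622558), 14 were lower at the adjusted p alone in 6KO1 and 14 in 6KO2, with medians of -0.87 and -0.94. Of all genes, 30.3% in 6KO1 and 25% in 6KO2 were lower at the adjusted p alone.

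In the 13 genes from Hist1h2ac to Hist1h1a (chr13:23681467-23764406), all 12 that were tested were lower in 6KO1, from -0.53 to -1.47 with a median of -0.86. In 6KO2, 0 of the 12 were lower at the adjusted p of at most 0.01, and 0 at an unadjusted p under 0.05. Their log2 fold changes were between -0.20 and 0.21, with a median of -0.01. Directly between the 6KO lines, 12 of 12 were lower in 6KO1 (median -0.87, from -0.65 to -1.29), against 24.2% of all genes. On the other side of the gap 1 of 15 was lower and 1 higher (median -0.02). Summed over the genes, the level in 6KO2 was 0.586 of WT before the gap and 0.996 of WT after it, and in 6KO1 0.530 and 0.559.

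Each of 12 other settings of the fit, DESeq2 among them, gave 12 lower genes after the gap in 6KO1 and 0 in 6KO2. There, 0 to 2 were higher in 6KO2 and the median lay between -0.05 and 0.06. With only genes of which at least 50% of 75-base stretches were their own, 10 of 10 after the gap were lower in 6KO1 and 0 of 10 in 6KO2, while before the gap 11 of 11 were lower in both. From E1E2 G9Gl to 6KO2, 5 genes after the gap were higher and 0 lower, and 11 before it were lower. Of all genes, 21.3% were higher and 22.3% lower at this step by the adjusted p alone. Hfe, a regulator of iron uptake that lies among the genes after the gap, had a log2 fold change of -0.07 in 6KO2 (adjusted p = 0.799). Zfp322a and Abt1, before the group, were at -0.18 and -0.12, and Carmil1, beyond it, at 0.84. Btn1a1, also before the group and at 0.28 CPM in WT, was called higher in 6KO2 (1.32). So was the pseudogene Gm11336 (1.35), at 0.222 CPM in WT, among the genes after the gap. The pseudogene Gm11398, at 0.624 CPM in WT, was called lower in 6KO2 (-1.61, adjusted p = 0.000912). It lies before the gap and overlaps Hist1h2be and Hist1h1e on the same strand. All other tested genes of chromosome 13 had a median of 0.16 in 6KO1 and 0.20 in 6KO2. Those with at least 1 CPM in WT between 20 and 30 Mb, 27 genes around the histone groups, had a median of -0.12 in each line.

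**Figure D4:**
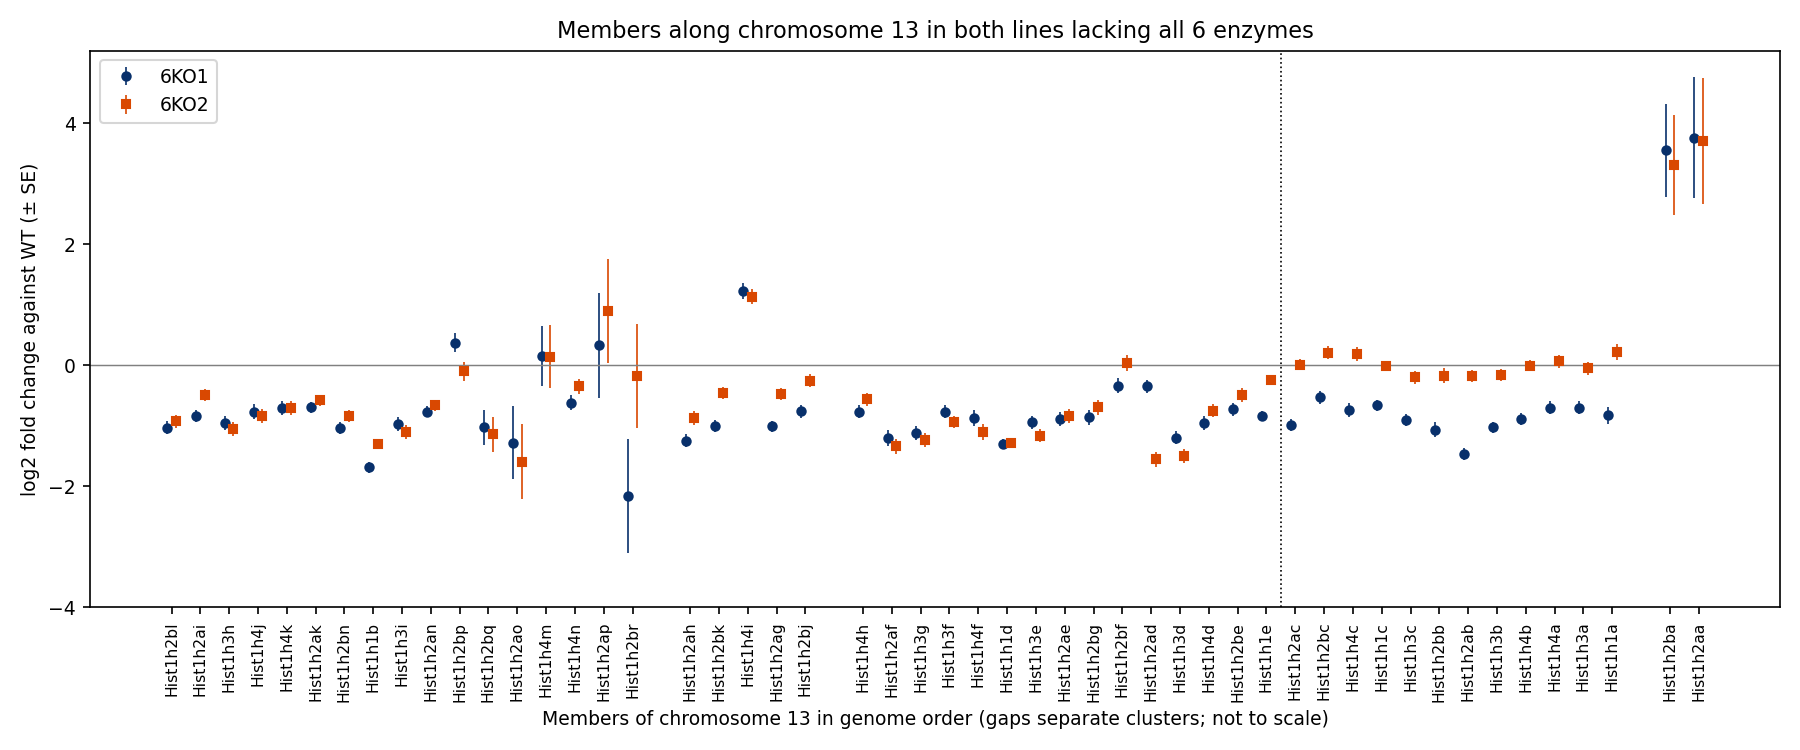
Log2 fold change against WT ± SE of the chromosome 13 histone genes in genome order, circles for 6KO1 and squares for 6KO2; the dotted line stands between Hist1h1e and Hist1h2ac. To its right up to Hist1h1a the circles lie between -0.53 and -1.47 and the squares between -0.20 and 0.21.

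In the other long group of chromosome 13, from Hist1h2bl to Hist1h2br with 18 members, 12 of the 17 tested were lower at the adjusted p alone in 6KO1 (median -0.84) and 11 in 6KO2 (median -0.71). The shares of all genes were 30.3% and 25%. The 10 members on chromosome 3 summed to 0.660 of WT in 6KO1 and 0.819 in 6KO2, with every library of both lines below all WT libraries. Gene by gene the direction was mixed. Their median was -0.09 in 6KO1 and -0.23 in 6KO2. At the adjusted p alone, 3 of the 10 were lower in each line, near the 30.3% of all genes in 6KO1 and 25% in 6KO2. In 6KO1 2 were higher and in 6KO2 1, against 6667 and 5474 of all 18565 genes. All other tested genes of chromosome 3 had a median of 0.39 in 6KO1 and -0.04 in 6KO2. The part of this shift in the values of the chromosome 3 members was not tested.

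Outside the rule for named genes, a few members with calls were picked after their values were seen. Hist2h2be, head to head with Hist2h2ac, was at 0.926, 1.8 and 0.872 CPM in WT and 4.31, 5.98 and 4.67 in 6KO1, and it rose by 2.03 ± 0.25 (adjusted p = 1.22e-07). It was at 2.66, 2.03 and 1.79 CPM in 6KO2, so 6KO1 stood above all 6KO2 libraries. Hist1h2bf was at 6.4, 7.4 and 6.58 CPM in WT, 17, 20.3 and 17.9 in E2 (1.44) and 17.4, 14.1 and 15 in E1E2 (1.19). Hist1h2ad, its neighbour, was at 27.4, 34.2 and 30.3 CPM in WT and 10.1, 11.1 and 10.1 in 6KO2 (-1.56 ± 0.12). Hist4h4 was at 72.6, 106 and 76.3 CPM in WT and 42.9, 38.3 and 41.9 in E1 S1S2 (-1.05). The other 2 genes called higher in E2 were Hist2h2aa1 (1.39) and the pseudogene Hist3h2bb-ps (1.30).

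Genes that act on histone transcripts were examined as lists. Of all genes tested with edgeR, 20.6% were called higher and 10.2% lower in 6KO1. In 6KO2 these shares were 15.3% and 5.39%. They are the shares to set beside the calls of every list below. Without the fold minimum, 30.3% of all genes were lower in 6KO1 and 25% in 6KO2, and 6667 and 5474 of 18565 were higher. Of 23 tested genes of histone mRNA 3′ end formation, 3 were called higher in 6KO1 (Zfp473, Cstf2t and the U7 snRNA gene Rnu7) and 5 lower (Snrpf, Snrpd3, Cstf2, Snrpg and Snrpe). The list median was -0.37. The adjusted p alone gave 14 lower and 4 higher genes of the 23 in 6KO1, and 13 lower and 1 higher in 6KO2. In 6KO2 edgeR and DESeq2 called 0 in either direction, with 3 higher and 14 lower at an unadjusted p under 0.05, and the median was -0.25. Slbp, which codes for the stem-loop binding protein, was at 148 ± 23.7 CPM (n = 3) in WT, 129 ± 7.77 in 6KO1 (-0.20, adjusted p = 0.0226) and 134 ± 4.4 in 6KO2 (-0.14, 0.0958). The 3 most abundant genes of the list, Celf1, Snrpb and Srrt, were at -0.23, -0.72 and -0.39 in 6KO1 and at -0.23, -0.43 and -0.24 in 6KO2. Lsm11, a part of the U7 particle, had log2 fold changes of -0.05 and 0.20, and Casp8ap2, which is needed for histone transcript processing, 0.26 and 0.06.

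Of 19 genes of histone gene transcription, E2f1 was called higher and E2f4 lower in 6KO1, and Ccne1, a cyclin of S phase entry, lower in 6KO2. The medians were -0.02 and -0.25. Counted by the adjusted p alone, 7 of the 19 were lower and 6 higher in 6KO1, and 11 lower and 6 higher in 6KO2. Npat was at 153 ± 9.33 CPM in WT, 107 ± 2.02 in 6KO1 (-0.51, adjusted p = 5.33e-09) and 113 ± 3.45 in 6KO2 (-0.44, 1.22e-07). Both falls were below the fold minimum. Ccna2 (cyclin A2) was at -0.02 and -0.35, and Cux1 at 0.63 and 0.79. Of 17 genes of histone mRNA decay, 2 were called lower in 6KO1 (Lsm6 and Lsm7) and Lsm7 in 6KO2, with medians of -0.31 and -0.13. The adjusted p alone gave 10 lower and 3 higher in 6KO1, and 6 lower and 4 higher in 6KO2. Upf1, a helicase of RNA decay, was at -0.06 in 6KO1 and 0.52 in 6KO2, Smg1 at 0.14 and 0.10, and Xrn2 at -0.54 and -0.43.

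Of 46 genes of DNA replication, edgeR and DESeq2 called 0 in 6KO1, with 9 higher and 25 lower at an unadjusted p under 0.05. For all genes, edgeR called 20.6% higher and 10.2% lower there. In 6KO2, 1 was called lower, Dut, which removes dUTP. Counted by the adjusted p alone, 19 of the 46 were lower and 7 higher in 6KO1, and 21 lower and 4 higher in 6KO2. Their medians were -0.19 and -0.14, nearer to 0 than the -0.77 and -0.36 of the histone genes, a difference that was not tested. Pcna, the clamp of the replication fork, had log2 fold changes of -0.28 and -0.39. The 3 most abundant of the list, Rrm1, Mcm5 and Hells, were at -0.67, -0.17 and -0.39 in 6KO1 and at -0.67, -0.13 and -0.52 in 6KO2. Of 29 genes of G2 and mitosis, Cdk1 was called lower in 6KO1 (-1.11, adjusted p = 8e-10). Bub1b was called lower in 6KO2, a call that DESeq2 did not make. The medians of the list were -0.36 and -0.22. The adjusted p alone gave 20 lower and 2 higher of the 29 in 6KO1, and 15 lower and 1 higher in 6KO2. These shares of lower genes were near those of the histone genes, 69.7% in 6KO1 and 47% in 6KO2. By this count the lowering was thus not particular to the histone genes. Cdk2, the kinase of S phase, was at -0.97 in 6KO1 and -0.49 in 6KO2. Top2a was at -0.66 and -0.65, and Anln at -0.36 and 0.16. Mki67, a marker of cycling cells, was at 598 ± 94.4 CPM in WT, 732 ± 29.5 in 6KO1 (0.29, adjusted p = 0.00242) and 635 ± 34.2 in 6KO2 (0.09, 0.356).

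Replication-independent histone genes also had a lower sum, from 1958 to 2577 CPM in WT libraries, 1379 to 1479 in 6KO1 and 1498 to 1561 in 6KO2, with single genes in both directions. By the adjusted p alone, 7 were lower and 4 higher in 6KO1, and 8 lower and 2 higher in 6KO2. Of all 18565 genes, 5633 were lower and 6667 higher in 6KO1, and 4643 lower and 5474 higher in 6KO2. Of 13 tested, 3 were called higher in 6KO1 (H2afv, H2bfm and H2afj) and 3 lower (H2afy, H2afy2 and H2afz), with a median of -0.39. In 6KO2 H2afj was called higher and H2afy2 lower, with a median of -0.48. H2afy2, a gene of macroH2A, fell from 42.1 ± 0.982 CPM in WT to 8.49 ± 0.114 in 6KO1 (-2.31) and 5.11 ± 0.705 in 6KO2 (-3.05). H2afz (H2A.Z) was at 309 ± 98.6 CPM in WT, 113 ± 7.77 in 6KO1 (-1.46) and 156 ± 12.1 in 6KO2 (-0.99). H3f3a and H3f3b, both coding for H3.3, had log2 fold changes of -0.96 and -0.39 in 6KO1 and -0.77 and -0.44 in 6KO2. H2afx, whose transcript holds a stem-loop, was at -0.80 and -0.48, H1f0 (H1.0) at -0.22 and -0.49, and Cenpa, the centromeric H3, at -0.05 and 0.07.

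Of 26 histone chaperone genes, Nap1l3 and Nap1l2 were called higher in both 6KO lines, Ipo4, Asf1a, Npm1 and Nap1l1 lower in 6KO1 and Npm1 in 6KO2. DESeq2 called 1 chaperone gene higher in 6KO1, without Nap1l3. The medians were -0.36 and -0.30. Counted by the adjusted p alone, 15 of the 26 were lower and 4 higher in 6KO1, and 15 lower and 7 higher in 6KO2. Npm1 was at -1.76 in 6KO1 and -1.24 in 6KO2, Ssrp1, a subunit of FACT, at -0.86 and -0.78, and Atrx at -0.23 and -0.46. Non-coding RNAs that also lack poly(A) give a view of transcripts kept by the same library type. Of 23 tested, 3 were called higher in 6KO1 (Rnu2-10, Rnu1a1 and Rn7s1) and Vaultrc5 lower, with a median of -0.12. Terc was called lower in 6KO2, with a median of 0.37. The adjusted p alone gave 7 lower and 6 higher in 6KO1, and 2 lower and 6 higher in 6KO2. Rn7sk, the 7SK RNA, had log2 fold changes of 0.50 and 0.63, above 0 in both lines. The RNase P RNA Rpph1 was at 0.04 and 0.05, and Rmrp at -0.04 and 0.45.

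**Figure D5:**
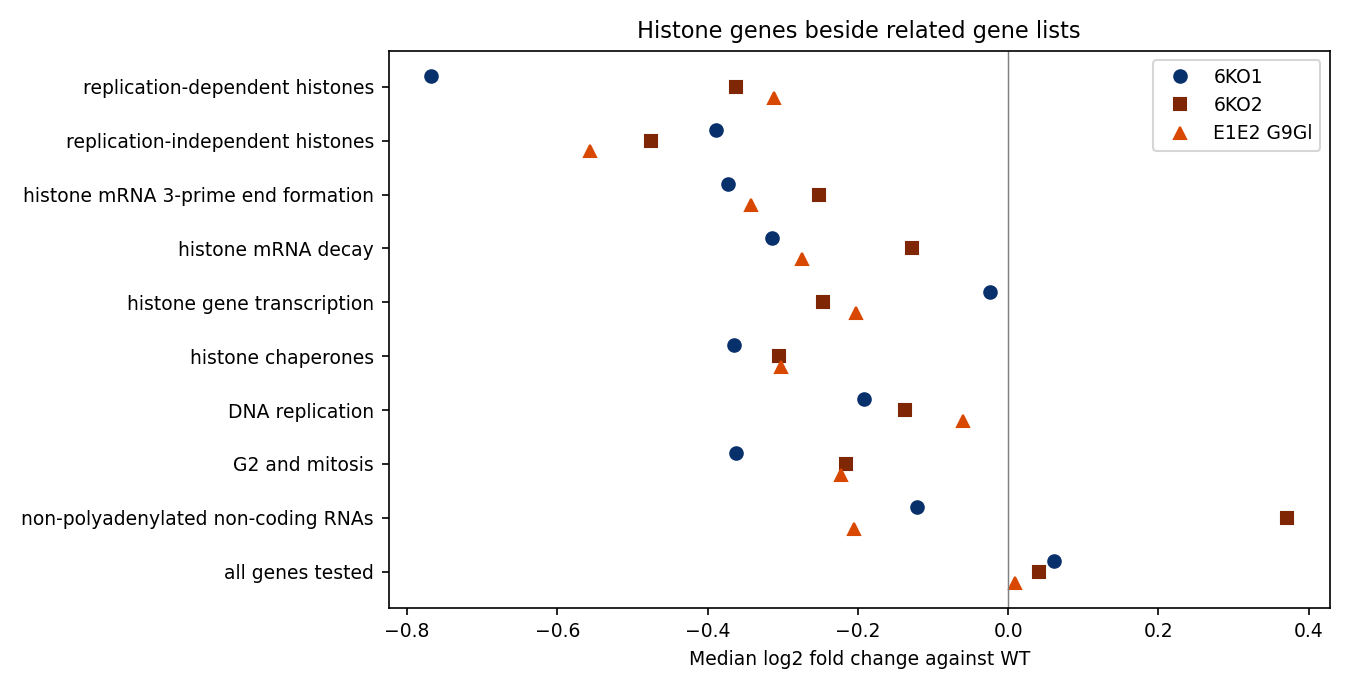
Median log2 fold change against WT of the histone genes, 8 other gene lists and all genes tested, in 6KO1, 6KO2 and E1E2 G9Gl. The histone genes have the lowest median in 6KO1 (-0.77), and in 6KO2 the replication-independent histones (-0.48) lie below them (-0.36). In E1E2 G9Gl both the replication-independent histones (-0.56) and the 3′ end formation genes (-0.34) lie below them (-0.31).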

How the data were processed

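Total RNA of mouse embryonic fibroblasts was depleted of ribosomal RNA, made into stranded libraries and sequenced in pairs of 75-base reads, in 24 libraries of 8 conditions with 3 replicates each. Per the study's methods and processing notes, the authors trimmed reads with cutadapt (version 1.8.1), mapped them to GRCm38 with STAR (version 2.5.2b) and obtained the deposited raw counts per gene and per repeat element with TEtranscripts. The strand setting and the treatment on genes of reads that map to several places were not given in the sources used here. Reads of near-identical histone genes may therefore be split or dropped: 28 of the 68 members had under 50% of their 75-base transcript windows to themselves, and 26 overlapped an exon of another gene, so these values are less certain.

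The table held 49383 entries, of which 1445 repeat elements and 1 malformed entry stayed out of library sizes and tests. Symbols were found for 47224 genes in GENCODE vM21. Libraries had 24736829 to 37419071 counts in all, and the precision of low genes is limited by counting error. Counts were scaled by TMM factors, filtered by filterByExpr and tested with the quasi-likelihood test of edgeR (version 4.0.16; R version 4.3.3), fitting the 24 libraries together with 1 term for each condition. P-values were adjusted by Benjamini-Hochberg over all 18565 genes in each of 13 comparisons. Scripts were tested on simulated data first. Alternatives were DESeq2 (version 1.42.0), other scaling, other filters, no fold minimum, a replicate block, and each library left out. The labels call replicates biological; they do not name separate cultures, so p-values measure the spread between these samples.

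This gene group and its lists were picked for study with earlier results of these data known, although membership of the group follows the symbol alone. Named members were the 3 most abundant per class, those called alike in both 6KO lines or in opposite directions against WT, testis-type members and those with a printed sequence. In each other list the 3 most abundant genes, a set of regulators and variants, and called genes were named. A number shared by replicates was checked as a pairing: the correlation of deviations ranged from -0.43 to 0.41. In 0 comparisons were all its values over 0.1, so the samples were treated as unpaired. With 3 libraries per condition this check cannot exclude a pairing, and the replicate block was fitted as an alternative.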

Additional observations from a re-analysis of the deposited data

Results flagged for a closer look

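The 6KO lines lacked the same 6 genes, and 7 histone genes differed between them by the direct edgeR test of 6KO1 against 6KO2 at the thresholds used above. Hist1h1a (-1.04), Hist1h2ab (-1.29) and Hist3h2ba (-2.52, a value that rests on low counts) were lower in 6KO1 on the log2 scale. Hist3h2ba passed the filter on low counts only through the clone A4 lineage, to which 6KO2 belongs. Hist2h2be (1.2), Hist1h2ad (1.21), Hist2h3c2 (1.51) and Hist2h3c1 (1.74) were higher. Hist2h3c1 was at 13.7, 14.6 and 15.2 CPM in 6KO1 and 4.94, 3.66 and 4.41 CPM in 6KO2, without overlap. Of the transcript stretches searched as above, 66.2% of Hist2h3c1 and 37.4% of Hist2h3c2 were found in no other histone gene. Part of the reads of each could thus have come from other copies. All 1825 exon bases of Hist2h3c1 also overlap Gm20634 on the same strand, which had a mean of 554 CPM in WT. How reads in this overlap were assigned was not tested, so the counts of Hist2h3c1 and its difference between the 6KO lines are uncertain.

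Hist1h1a was lower than WT in E1 S1S2 (-1.98) and higher in E2 (1.07). The difference between both effects was not tested. With 3 libraries per condition, no test for a single outlying library was run.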

How the results depend on the processing

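Of 565 values recomputed for the counts of calls and the sums, 496 stayed close to the main value. Close meant equal or within 1.5 times for counts, and within the SD of the ratio to WT for sums. Without the fold minimum, histone genes higher numbered 3 in E1, 17 in E2, 5 in E1E2 and 7 in E1E2 G9Gl, of 66 tested. Of all 18565 genes, 1248, 2328, 3019 and 5733 were higher in these conditions. Histone genes lower numbered 15 in E1 S1S2, 46 in 6KO1, 31 in 6KO2, 1 in E1E2 and 27 in E1E2 G9Gl. Of all genes, 4067, 5633, 4643, 3135 and 5245 were lower there. In the steps of series 1, 13 histone genes were lower from E1 to E1 S1S2, and 7 were higher and 41 lower to 6KO1. Of all genes, 3218 were lower at the former, and 5647 higher and 4258 lower at the latter. In series 2, 14 were lower from E2 to E1E2, 20 lower to E1E2 G9Gl, and 9 higher and 19 lower to 6KO2. Of all genes these were 994 lower, 4594 lower, and 3962 higher and 4141 lower. In 6KO1, 22 were lower than in 6KO2, against 4492 of all genes. The other lists then had 21, 93, 135, 61, 66, 113 and 122 genes against WT in the series 1 conditions E1, E1 S1S2 and 6KO1 and then the series 2 conditions E2, E1E2, E1E2 G9Gl and 6KO2 (with the minimum 0, 1, 29, 0, 1, 15 and 10).

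With a mean count above 100, which leaves fewer genes, 1 histone gene was higher and 7 lower in 6KO1, 1 higher in E1E2, 1 higher in 6KO2, 0 higher in E1E2 G9Gl, 2 lower from E1 S1S2 to 6KO1 and 0 higher from E1E2 to E1E2 G9Gl, and the lists had 9 in E1E2 G9Gl and 6 in 6KO2. With only the 6 libraries compared, 2 were higher in 6KO1, 2 in 6KO2 and 5 lower in 6KO1 than 6KO2. Without a filter, 1 was lower in E1E2 G9Gl (also 1 with factors from genes and repeats), 2 from E2 to E1E2 and 5 in 6KO1 against 6KO2. With only the 39 genes of at least 50% own windows, chosen after seeing the data, 5 were lower in 6KO1 and 5 in 6KO2, 3 higher in E2 and 1 in E1E2, 2 lower from E1 S1S2 to 6KO1, 2 lower from E1E2 G9Gl to 6KO2 and 2 higher in 6KO1 than 6KO2. Without the members from Hist1h2bl to Hist1h1e, also chosen after seeing the data, the 6KO2 sum was 0.962 of WT. The cause of these shifts beyond the genes or libraries removed was not tested.

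Leaving out 1 library at a time gave 0 to 1 higher in E1, 1 to 3 lower in E1 S1S2, 6 to 19 lower in 6KO1, 3 to 5 higher in E2, 2 to 4 higher in E1E2, 3 to 5 higher and 0 to 1 lower in E1E2 G9Gl, 7 to 13 lower in 6KO2, 0 to 1 lower from E2 to E1E2 and 0 to 1 higher from E1E2 G9Gl to 6KO2. The lists ranged from 1 to 5 in E1 S1S2, 0 to 2 in E2 and 1 to 2 in E1E2. The lowest counts in 6KO1 and 6KO2 were those without WT replicate 2.

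The replicate block moved 0 of the counts by over 1.5 times (4 higher and 14 lower in 6KO1) and changed the call of 2 named gene values. Over all alternatives, 69 of 2156 named gene values passed the threshold anew and 72 no longer passed. Counts near 0 limit Hist3h2ba, Hist1h2aa and Hist1h2ba.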
